A study of Homo sapiens with 4 samples.

Results

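H4K20me3 peaks that lay wholly inside introns of protein-coding genes, outside the zinc finger and protocadherin families, were examined in IMR90 cells, diploid fibroblasts of human lung that divide a limited number of times in culture. H4K20me3 (histone H4 trimethylated at lysine 20) was mapped by ChIP-seq in proliferating cells at population doubling 32 (PRO) and in cells at population doubling 86 that had entered replicative senescence (RS). The labels name no agent or genetic change in either group. Each group was profiled with 2 rabbit monoclonal antibodies, which gave 4 samples. Each group was represented by 1 list of peaks called with both antibodies, and a further list held the regions that the authors called different between the groups with DiffBind, without a direction. The DiffBind list analysed here is shorter than the study describes, so a peak without a DiffBind overlap may have lost it to a missing row, and shares over DiffBind regions apply to this list only. A peak was a member when it lay on chromosomes 1 to 22 other than 19, inside the body of a coding gene (GENCODE release 44 on GRCh37) whose symbol did not start with ZNF, ZFP, ZSCAN, ZKSCAN or PCDH, touched no exon of any gene, overlapped no gene of those families and stayed more than 2 kb from every coding gene start. This rule took 307 of 2836 PRO peaks and 7071 of 35535 RS peaks, or 7378 of 38371 in all. Because the lists give positions only, PRO and RS could be compared without replicate error or p-values, and the read depth behind a peak is unknown. The percentages below carry Wilson 95% intervals where given. They cover counting error only and treat peaks as independent, although neighbouring peaks may not be.

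H4K20me3 is written by the methyltransferases KMT5B and KMT5C, largely on chromatin that already carries H3K9me3 and HP1, and is best known from satellite repeats near centromeres, from telomeres and from silenced retrotransposons. Introns make up most of the length of long genes and are filled with remains of such transposons. LINE-1 elements carry their own promoter at the 5′ end of a body of several kilobases, and most copies have lost that end. THE1 elements are retrotransposons with a long terminal repeat (LTR) on each side of an internal part. Minisatellites are tandem arrays of a short unit and are frequent near human chromosome ends.

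The sequences below show the kinds of intron sequence on which the peaks lay. All are given 5′ to 3′ in hg19 (GRCh37) coordinates, on the strand of the host gene or, for the 30-base sequence, of the transposon. The first set is tandem arrays with the first repeat unit in capitals, from a named peak whose window matched itself at every position (DPP6), the gene with the most RS peaks (PTPRN2) and the longest RS peak (TTC34). A unit here is the shift at which the window matched itself best. The DPP6 window at chr7:154452801-154453000 (+ strand) had a unit of 88 bases. The PTPRN2 window at chr7:157940801-157941000 (− strand) had a unit of 38 bases and the TTC34 window at chr1:2622201-2622400 (− strand) a unit of 80 bases. In DPP6 and TTC34 the stretch in capitals was itself made of shorter, similar but not identical copies in a row.
DPP6: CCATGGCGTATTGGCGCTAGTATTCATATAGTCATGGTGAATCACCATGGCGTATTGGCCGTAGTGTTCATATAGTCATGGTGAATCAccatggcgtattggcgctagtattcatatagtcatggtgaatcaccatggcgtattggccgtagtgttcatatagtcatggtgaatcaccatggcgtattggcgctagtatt
PTPRN2: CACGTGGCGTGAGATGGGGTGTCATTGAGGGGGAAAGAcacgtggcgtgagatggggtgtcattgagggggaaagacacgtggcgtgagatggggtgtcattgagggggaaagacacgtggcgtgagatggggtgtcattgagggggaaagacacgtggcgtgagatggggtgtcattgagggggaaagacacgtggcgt
TTC34: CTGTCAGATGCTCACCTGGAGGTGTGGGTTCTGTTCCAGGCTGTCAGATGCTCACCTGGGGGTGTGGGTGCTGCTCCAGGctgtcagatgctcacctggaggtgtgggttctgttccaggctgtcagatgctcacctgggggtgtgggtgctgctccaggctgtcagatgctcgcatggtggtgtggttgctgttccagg

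Within a reference copy of the leading group of shared sequence, the next is the 30-base sequence held by the largest number of RS intron-only peaks. It is in capitals throughout because all 30 bases are shared. This LINE-1 sequence, at chr1:196755544-196755573 (− strand) in CFHR3, was present in 445 RS members (6.29%) and 2 PRO members, and occurred 2877 times on the chromosomes used.
LINE-1 5′ end: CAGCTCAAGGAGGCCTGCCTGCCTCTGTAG

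The last set spans the range of other intron sequence, with CpG dinucleotides in capitals. The ARNT2 window (chr15:80797201-80797400, + strand) came from the second longest RS peak and was single-copy, with a GC content of 57.5%. The DHX32 window (chr10:127577001-127577200, − strand) had the lowest GC content of the named peaks, 20.0%, and came from a PRO peak that touched no RS peak.
ARNT2: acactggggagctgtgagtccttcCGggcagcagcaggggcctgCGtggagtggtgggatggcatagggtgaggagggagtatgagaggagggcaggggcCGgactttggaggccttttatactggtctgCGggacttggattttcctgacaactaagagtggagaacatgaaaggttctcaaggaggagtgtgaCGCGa
DHX32: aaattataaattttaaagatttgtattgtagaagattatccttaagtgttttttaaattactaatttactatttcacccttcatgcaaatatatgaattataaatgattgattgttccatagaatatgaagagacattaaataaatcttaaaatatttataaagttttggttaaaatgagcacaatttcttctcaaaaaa

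The first question was how many intron-only peaks each list held and how much intron they covered. Per the study, the peaks of the 2 antibodies overlapped far more in RS than in PRO cells. Keeping only stretches called with both may thus have thinned the PRO list more. The part of this rule in the RS to PRO ratios was not tested. RS intron-only peaks were 23.0 times as many as PRO ones and covered 6.38 Mb, against 0.188 Mb in PRO, a ratio of 33.9. Together they took 23.3% of the RS list on the chromosomes used but 13.1% of the PRO list. For all other peaks on the same chromosomes the ratio of numbers was 11.4. It was 2.34 for peaks within 2 kb of a coding gene start (251 PRO and 587 RS), 8.72 for peaks in zinc finger or protocadherin genes (108 and 942), 13.0 for peaks on coding gene exons (66 and 859) and 13.0 outside coding genes (1599 and 20731). The plot of peak numbers by place shows the widest gap for the intron-only peaks. The contrast with peaks outside coding genes varied with the choice of peaks. It nearly vanished when every peak with a 75-base sequence found elsewhere in the genome was dropped. The ratios were then 26.96 for intron-only peaks (150 and 4044) and 24.4 outside coding genes (468 and 11420), whereas promoter peaks stayed at 1.79. It widened when shorter peaks than 1000 bp were left out instead. RS to PRO was then 50.4 for intron-only peaks (56 and 2825), against 18.2 outside coding genes (518 and 9422). What set the contrast was not tested.

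**Figure D1:**
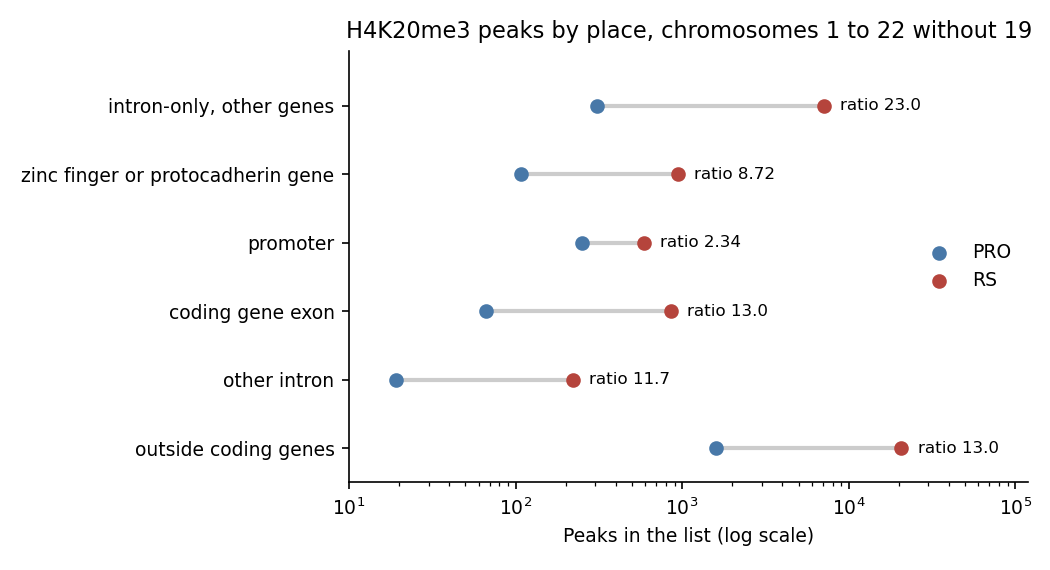
Number of PRO (blue) and RS (red) H4K20me3 peaks in each exclusive class of place, on a log scale, with the ratio of RS to PRO beside each line. Intron-only peaks of genes outside the zinc finger and protocadherin families had the highest ratio, 23.0, and promoter peaks the lowest, 2.34.

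RS members were also longer. Their median length was 801 bp (quartiles 601 and 1201 bp), against 601 bp (quartiles 201 and 801 bp) in PRO, and the mean was 902 bp (SD 827 across peaks) against 613 bp (SD 475 across peaks). The same medians, 801 and 601 bp, held over all peaks on these chromosomes and outside coding genes, so the medians were not particular to introns. Covered length did differ from those classes. From PRO to RS it rose more than number in the members, 33.9 against 23.0 times. Over all peaks it rose less than number, 11.3 against 12.9 times, as it did outside coding genes, 10.4 against 13.0 times. The study reports no change in the mean length of all its peaks. Peaks of at least 2000 bp made up 5.42% of RS members and 1.63% of PRO members. Even so, the RS members covered only 0.5995% of the 1064 Mb of intron that could hold a member, and PRO members covered 0.0177%.

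Most intron peaks of the RS list lay where the PRO list had none. With 2350 PRO against 30412 RS peaks on these chromosomes, only a small share of RS peaks could be expected to meet a PRO peak. Of the 7071 RS members, 97 (1.37%, interval 1.13 to 1.67) overlapped a PRO peak, against 3.49% of all RS peaks on these chromosomes. In the other direction 113 of 307 PRO members (36.8%, interval 31.6 to 42.3) overlapped an RS peak, against 51.6% of all PRO peaks. PRO members that met an RS peak shared 86.9% of their bases with it, and 88 of the 113 lay wholly inside one. For 175 PRO members (57.0%) the deposited lists held neither an overlapping RS peak nor a DiffBind overlap. The share was 44.4% over all PRO peaks, 57.6% for coding exon peaks and 64.9% for promoter peaks. The 194 PRO members off RS peaks had a median length of 401 bp, against 601 bp for the 113 over them.

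DiffBind regions covered 3446 RS members (48.7%, interval 47.6 to 49.9), compared with 43.7% of all RS peaks. All 3446 were covered by DiffBind regions along their whole length, which may follow from how those regions were built. The study's settings let a DiffBind region rest on peaks of either antibody alone, whereas RS peaks needed both. By class the share was 65.7% for peaks in zinc finger or protocadherin genes, 54.7% for coding exon peaks, 40.7% outside coding genes and 38.2% for promoter peaks, and the intron-only peaks sat between the exon peaks and those outside genes. The share went up with length, from 42.4% of 592 members of at most 400 bp to 49.8% of 3392 members of 801 to 1600 bp and 70.7% (interval 58.0 to 80.8) of 58 members longer than 3200 bp.

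The longest members were examined one by one. The longest RS member covered 51001 bp of intron 6 of TTC34, a gene for a tetratricopeptide repeat protein near the end of the short arm of chromosome 1 (chr1:2583401-2634401). Of its 255 windows of 200 bp, 81.6% held a sequence repeated elsewhere and 36.5% were tandem arrays, and it touched neither a PRO peak nor a DiffBind region. The next 9 were far shorter, 4401 to 5801 bp. ARNT2, a transcription factor of the bHLH-PAS family, held 5801 bp in intron 5 (chr15:80793801-80799601), GALNT17, a glycosyltransferase, held 5601 bp in intron 2 (chr7:70841801-70847401), and SORCS2, a sorting receptor of neurons, held 5201 bp in intron 3 (chr4:7577401-7582601). IRGM, an autophagy GTPase, and KRBOX5 each held a peak of 5201 bp. CTDP1, a phosphatase of RNA polymerase II, held 4801 bp in intron 12, TAF7, a subunit of the general transcription factor TFIID, held 4601 bp, and a gene record without a symbol on chromosome 16 (ENSG00000285329) held 4801 bp. Those in ARNT2, SORCS2, IRGM, KRBOX5, CTDP1, TAF7 and ENSG00000285329 lay wholly inside DiffBind regions, whereas those in TTC34, GALNT17 and IL1R1 touched none. Apart from TTC34, at most 17.4% of the windows of these peaks held repeated sequence. IL1R1, the receptor of interleukin-1, had 4401 bp in intron 1 (chr2:102759801-102764201), of which 801 bp were also a PRO peak.

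Among the 5 longest PRO members, 4 held tandem arrays. The longest covered 3801 bp in intron 2 of DLGAP2, a scaffold protein of excitatory synapses on chromosome 8, with 63.2% tandem windows, and 2001 bp of it were also an RS peak. In PTPRN2, a receptor-type phosphatase of secretory vesicles, a peak of 3201 bp in intron 6 (chr7:157939201-157942401) had 68.8% tandem windows and shared 2801 bp with RS. SMOC2 and EXD3 peaks of 3001 and 2201 bp had 46.7% and 36.4% tandem windows. A peak of 2201 bp in GNAI1, which encodes an inhibitory G protein subunit, had no tandem window and lay wholly inside an RS peak. Other PRO members kept whole in RS were found in DPP6 (1601 bp, all 8 windows tandem), in DPF3 (1601 bp, single-copy), in MSR1 (1401 bp, single-copy) and in intron 17 of RB1, the retinoblastoma gene (1401 bp, chr13:49001201-49002601, with 6 tandem windows of 7), which also hosts LPAR6. A peak of 1601 bp in the duplicated NBPF10 and NOTCH2NL genes of chromosome 1 shared 1201 bp with RS. The longest PRO members that touched no RS peak, 1401 to 1601 bp, lay in CLSTN2, GALNT17, DHX32, FANK1 and SLCO4C1. Of these only the DHX32 peak lay in a DiffBind region.

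The host genes were then counted. An RS member lay in 2750 of the 15460 genes with qualifying intron (17.8%) and a PRO member in 258 (1.67%). Of the 258 PRO hosts, 198 (76.7%) also hosted an RS member. Hosts were long genes: the median qualifying intron was 27.6 kb over all these genes, 135 kb in RS hosts and 212 kb in PRO hosts. With 10 to 50 kb of such intron, 7.38% of genes hosted an RS member, whereas with at least 500 kb 95.7% did (267 of 279). Density differed less than the share of hosts, at 4.31 RS peaks per Mb in genes with 10 to 50 kb and 8.40 per Mb in those with at least 500 kb. Among RS hosts 1255 held a single peak, 387 held at least 5 and 86 at least 10.

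PTPRN2 held 77 RS members over 1029 kb of qualifying intron, or 74.8 per Mb against 6.64 per Mb over all qualifying intron, and they covered 7.37% of it. It was followed by DLGAP2 with 37 (39.3 per Mb) and DPP6, an accessory subunit of potassium channels, with 34 (28.1 per Mb). The 3 genes lie near the ends of the long arm of chromosome 7 or the short arm of chromosome 8. CTNNA3, a catenin of cell junctions, had 30, and AGBL4, a tubulin-modifying peptidase, CCSER1 and SPAG16, a protein of the sperm flagellum, had 27 each. STPG2 held 26, CNTNAP2, a neuronal adhesion protein of the neurexin family, 23, SDK1, a cell adhesion protein, and LRMDA 21 each, DLG2, a synaptic scaffold, and EYS, a protein of photoreceptors, 20 each, GALNT17 19 and RBFOX1, a splicing regulator, 18. These 15 genes held 427 RS members, 6.04% of all, on 2.01% of the qualifying intron. The share over DiffBind regions ranged from 5.56% in RBFOX1 to 60.0% in EYS.

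The 15 hosts differed in the sequence under their peaks. In PTPRN2 30 of 77 RS members and in DLGAP2 21 of 37 held a tandem array, whereas AGBL4, SPAG16, STPG2, LRMDA, DLG2, EYS, GALNT17 and RBFOX1 had none. LINE-1 5′ ends lay under 11 of 27 members in CCSER1, 8 of 30 in CTNNA3, 7 of 27 in AGBL4 and 7 of 26 in STPG2, and under none in PTPRN2, SDK1, GALNT17 and RBFOX1. Both counts for each gene are drawn in the plot of host genes.

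**Figure D2:**
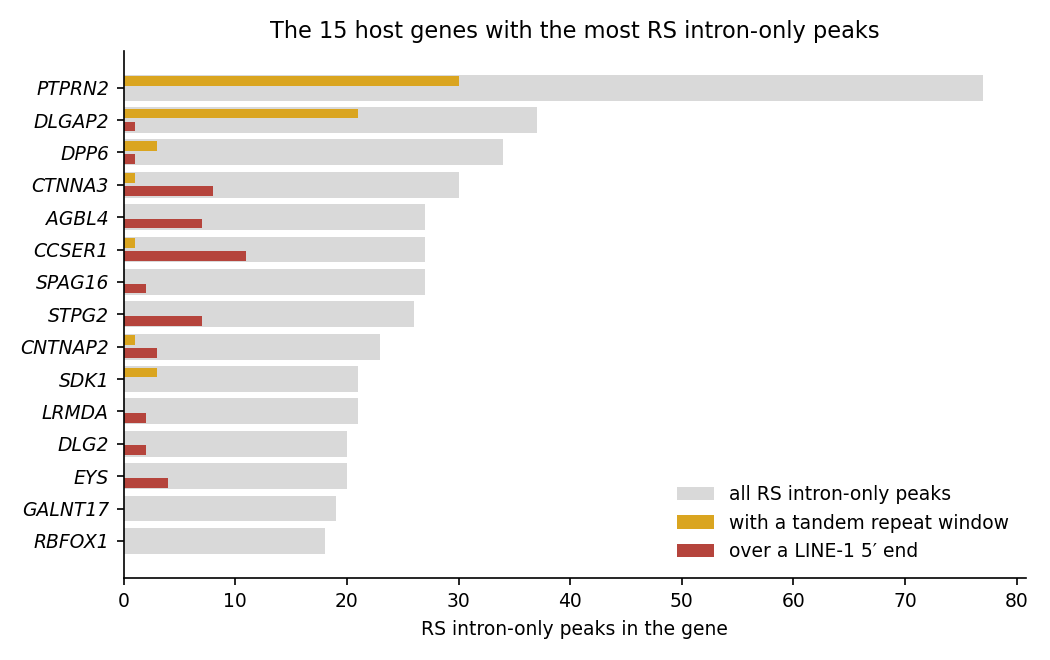
RS intron-only peaks (grey bars) in each of the 15 genes that held most of them, with the number that held a tandem repeat window (yellow) and the number over a LINE-1 5′ end (red). PTPRN2, with 77 peaks, and DLGAP2, with 37, had the most tandem arrays, 30 and 21, and CCSER1 the most LINE-1 5′ ends, 11.

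By share of qualifying intron covered, among genes with at least 5 RS members, other genes led. RS members covered 47.2% of the 19.9 kb of the gene record ENSG00000256825 on chromosome 12, 36.0% of the 53.3 kb of TAF7 and 33.3% of the 67.4 kb of KRBOX5, a gene of the KRAB family whose older symbol is ZNF720. KIAA1143 (22.6%), ENSG00000285329 (19.3%), MAPK9, a stress kinase (18.1%), SLC1A7, a glutamate transporter (17.6%), IRGM (17.2%), CHFR, a mitotic checkpoint ligase (14.9%), and ANKRD30BL (11.6%) came next. All 15 peaks of KRBOX5, all 7 of ENSG00000256825 and all 5 of IRGM were over DiffBind regions, whereas 1 of 8 in CHFR and 0 of 14 in ANKRD30BL were. Several of these genes neighbour the left-out families. ENSG00000256825, ENSG00000285329, IRGM and CHFR overlap or adjoin a ZNF gene, KIAA1143 lies 0.577 kb from ZNF501, TAF7 lies 9.73 kb from PCDHGA1 and KRBOX5 lies 78.9 kb from ZNF267, whereas SLC1A7 lies 10235 kb and ANKRD30BL 36980 kb from any. Over all qualifying intron within 100 kb of such a gene, RS members numbered 11.4 per Mb, against 6.88 per Mb at 100 to 500 kb and 6.68 per Mb beyond 2 Mb. Only 138 RS members (1.95%) lay within 100 kb.

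Of the 258 PRO hosts, 65 held more PRO than RS members, and 60 of these held no RS member. The 65 were led by LPA, which encodes apolipoprotein(a) with its repeated kringle domains, with 10 PRO and 4 RS members. The PRO members of LPA were 201 to 1401 bp long, all 10 held repeated sequence and all 10 overlapped an RS peak. NBPF10, of a duplicated family on chromosome 1, had 6 PRO and 2 RS members, and DHX32, an RNA helicase, had 4 and 0. LPA and NBPF10 were chosen after their values were seen.

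Groups of genes with a shared role were set beside the background of 17.8% RS hosts, 27.6 kb of median qualifying intron and 6.64 RS peaks per Mb. The list of neuronal adhesion genes, which also holds the junction catenin CTNNA3, hosted an RS member in 31 of 38 cases (81.6%). It had a median of 843 kb and 7.64 peaks per Mb, led by CTNNA3, CNTNAP2, SDK1 and DSCAM (14 peaks). CTNNA3 and CNTNAP2 also lead the next list. Genes of common fragile sites, which break under replication stress, hosted an RS member in 25 of 26 cases, with 6.48 per Mb. Glutamate receptors hosted one in 13 of 22 cases, at 7.03 per Mb, with GRID1 (18 peaks), GRIK2 (10) and GRM8 (8) among them. Potassium and calcium channels did so in 16 of 35 cases, at 6.59 per Mb, among them CACNA2D3 (9), CACNA1C (8) and KCNQ1 (7). Per Mb these groups thus lay close to the background, while their median qualifying intron was longer than that of all genes. Receptor tyrosine phosphatases had 13.9 peaks per Mb in 10 of 18 genes, of which PTPRN2 gave 77 of 116 peaks, followed by PTPRT (17) and PTPRD (11). ADAM and ADAMTS proteases had 9.96 per Mb in 15 of 37 genes, among them ADAMTS17 (8), ADAMTS6 (8) and ADAM21, of which 24.7% was covered by 4 peaks.

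Groups of genes tied to the fibroblast, to senescence and to the cell cycle were counted in the same way. Fibroblast matrix genes hosted an RS member in 6 of 36 cases (16.7%) at 5.65 per Mb, close to the background, with LAMA2 (5 peaks), FBN2 (4), FBLN1 (4) and COL14A1 (2) in front. Of 23 senescence and secretory genes only RB1 hosted one, with 3 RS members and 1 PRO member, at 3.74 per Mb. The median qualifying intron of that group was 7.02 kb, and over all genes with under 10 kb 0.879% hosted an RS member. Of 39 cell cycle and replication genes only CCND3, a D-type cyclin, did, with 1 peak, at 0.902 per Mb and a median of 15.6 kb. Heterochromatin factors did so in 5 of 25 cases at 6.37 per Mb, with EHMT1, an H3K9 methyltransferase, and KDM4C, an H3K9 demethylase, at 3 each, and HIRA, a histone chaperone, and DNMT3A, a DNA methyltransferase, at 2 each. KMT5B, a writer of the mark itself, had none in 48.3 kb, and KMT5C is on chromosome 19, which was left out. Zinc finger genes outside the excluded prefixes hosted one in 18 of 94 cases (19.1%) at 5.22 per Mb, with PRDM16 (7), GLIS3 (3) and RBAK (3, covering 31.4% of its 15.3 kb) in front.

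Within genes, the member rule itself keeps peaks off exons and away from gene starts, so distances are given as a description. The median distance to the nearest exon of any gene was 6.20 kb (quartiles 2.49 and 14.4 kb) for RS members and 3.83 kb (1.12 and 13.3 kb) for PRO members. Of 5745 RS members that lay in an intron of the principal transcript, 19.7% were in the first intron, at 5.15 per Mb against 6.39 per Mb in later introns. RS density was 1.32 per Mb in introns under 5 kb, 5.84 in those of 5 to 20 kb, 8.17 in those of 20 to 50 kb and 7.26 in those of at least 200 kb, and PRO density ran from 0.186 to 0.364 per Mb over the same range. A short intron has less room for a whole peak that avoids every exon, and this part of the difference was not measured. Another member of the same list lay within 10 kb for 45.2% of RS members, at 6.64 members per Mb, and for 11.1% of PRO members, at 0.289 per Mb. A denser list has more neighbours at any placement, so these shares do not compare clustering between the groups.

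Along chromosomes the RS members were densest near the ends. Within 1 Mb of an end there were 12.3 RS members per Mb of qualifying intron (179) and at 1 to 2 Mb 13.7 per Mb (217), compared with 5.57 per Mb at 10 to 20 Mb and 6.85 per Mb beyond 50 Mb. PRO density fell along the same path from 0.960 per Mb within 1 Mb of an end to 0.189 per Mb beyond 50 Mb. Tandem arrays followed the same course. They were present in 28.5% of RS members within 1 Mb of an end and in 27.6% at 1 to 2 Mb, but in 7.39% at 2 to 5 Mb and in 0.580% beyond 50 Mb. PTPRN2 and DLGAP2, both within 2 Mb of an end, gave 77 and 37 of the RS members there, 30 and 21 of them with a tandem array. Leaving out peaks within 5 Mb of an end, a choice made after seeing the data, did not lower the RS to PRO ratio of numbers (25.2, against 23.0). Between chromosomes the density ranged from 4.31 per Mb on chromosome 22 and 5.04 on chromosome 20 to 8.66 on chromosome 7, which carries PTPRN2 and DPP6, and 8.96 on chromosome 21.

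**Figure D3:**
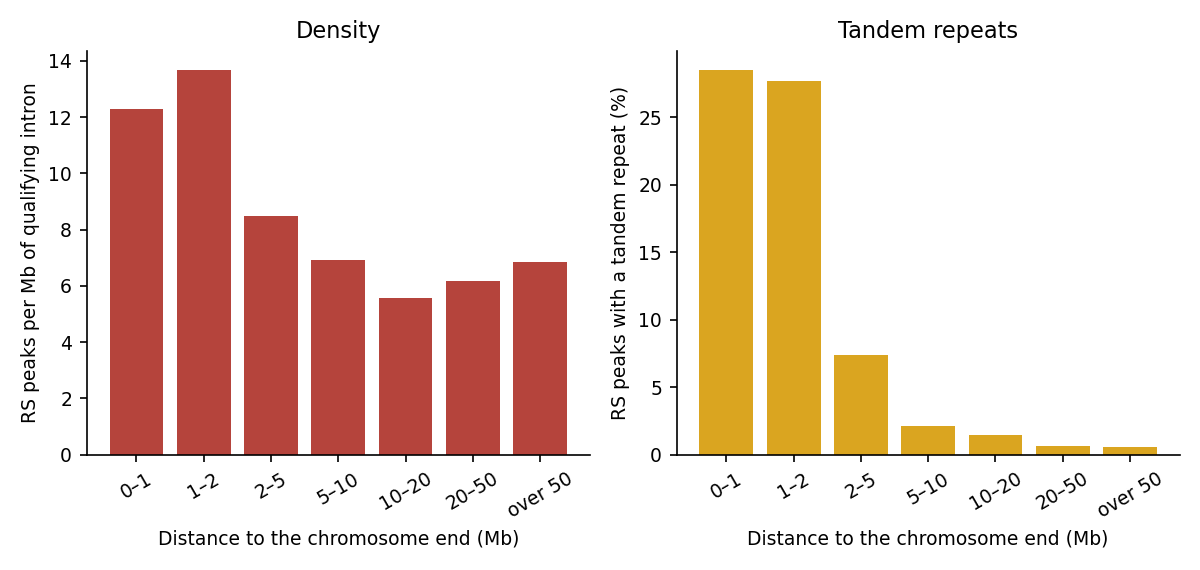
RS intron-only peaks by distance to the nearest chromosome end. Left, peaks per Mb of qualifying intron, from 12.3 within 1 Mb to 5.57 at 10 to 20 Mb; right, percentage of those peaks with a tandem repeat window, from 28.5% within 1 Mb to 0.580% beyond 50 Mb.

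The sequence of the members was compared, in windows of 200 bp, with a grid of 50475 windows of qualifying intron that no deposited region touched. The median GC content was 50.0% (quartiles 45 and 54.5) in 31862 RS windows, 50.5% (47 and 55) in 940 PRO windows and 40.0% (34 and 47) in the grid. Windows under 40% GC made up 7.94% of RS, 4.04% of PRO and 48.8% of grid windows. The curves of GC content show both sets of peaks shifted towards higher GC content than the uncovered introns. The 3381 RS members without repeated 75-base, tandem, LINE-1 or THE1 sequence, 48.4% of those with a window, had a median of 49.5%. The grid was not filtered in the same way, and 10.2% of the windows of these members still had a median of at least 10 copies of their 24-base sequences. CpG dinucleotides averaged 2.84 per window in RS, 4.78 in PRO and 1.89 in the grid. The ratio of observed to expected CpG, which allows for GC content, had a median of 0.180 in RS, 0.273 in PRO and 0.174 in the grid, so RS windows lay close to the grid on this measure.

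**Figure D4:**
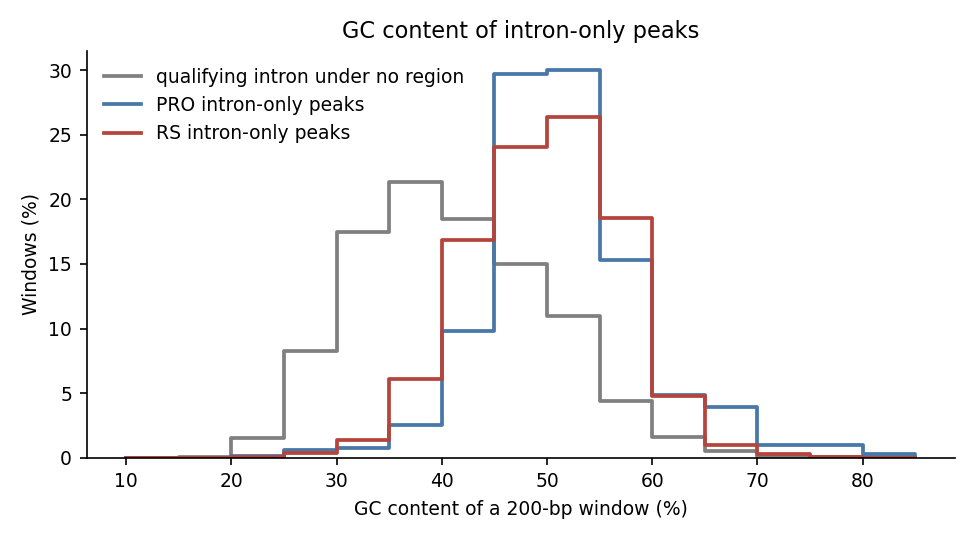
GC content of 200-bp windows, as the percentage of windows in steps of 5 percentage points, for RS intron-only peaks (red), PRO intron-only peaks (blue) and qualifying intron outside all deposited regions (grey). The peaks centre on medians of 50.0% and 50.5%, the uncovered introns on 40.0%.

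Repeated sequence was commoner in the members than in the grid, and in PRO more than in RS. A 75-base sequence that occurs elsewhere in the genome was present in 21.9% of RS windows (interval 21.5 to 22.4), 40.0% of PRO windows (36.9 to 43.2) and 7.35% of grid windows (7.13 to 7.58). By peak it was present in 43.3% of RS and 52.9% of PRO members. RS members inside DiffBind regions had less of it than those outside, 18.0% against 26.3% of windows. Tandem arrays took 1.85% of RS, 12.3% of PRO and 0.194% of grid windows. They were found in 194 RS members of 119 genes and in 34 PRO members of 29 genes, with a median unit of 54 and 53 bases and a GC content of 59.5% and 56.8%. The commonest unit in RS was 40 bases. Units are best-matching shifts, so some may span shorter copies. Of the 590 RS tandem windows, 93 lay in the longest RS member, in TTC34. The RS window share, units and GC content of tandem arrays thus rest partly on that peak. The part of ambiguous read placement in these shares was not tested.

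The transposon sequence in the RS members was next identified from the sequence alone, since no repeat annotation was used. The commonest group of shared sequence was the 5′ end of LINE-1. A reference copy of 1000 bases (chr1:196755001-196756000), in intron sequence of CFHR3, matched 9133 places on the chromosomes used, of which 2858 lay wholly in qualifying intron. Such copies lay under 1014 RS members (14.3%, interval 13.5 to 15.2) in 738 genes and 11 PRO members (3.58%, interval 2.01 to 6.30). They took 0.229% of the bases of the qualifying intron, a measure unlike the share of members that touch a copy. The group was found from RS members and for its rarity in uncovered intron. Its larger share in RS than in PRO or in uncovered intron may therefore follow in part from that choice. Of these 1014 RS members 47.7% were over a DiffBind region, close to the 48.7% of all RS members, and 10 were over a PRO peak.

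The share of LINE-1 copies under an RS peak varied with their likeness to the reference copy. It was 11.2% (interval 9.12 to 13.7) of 732 intron copies under 75% identity, 26.3% (22.9 to 30.1) of 570 copies of 75 to 85%, 54.1% (50.0 to 58.2) of 558 copies of 85 to 90% and 48.4% (45.3 to 51.5) of 998 copies of at least 90%. PRO peaks lay on 12 of the 2858 copies (0.420%), so in introns 1017 copies were under an RS peak and 12 under a PRO peak. Outside coding genes the same steps gave 15.8%, 35.7%, 63.7% and 50.0% under RS peaks, each somewhat above the intron value. The reference copy came from an RS member, so its own likeness is not independent of the peaks.

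The peaks sat on the start of the element and not on its body. Over 1398 intron copies of at least 85% identity that reached the outer end of the reference copy, taken as the 5′ end, RS peaks covered 2.50% at 500 bp before the 5′ end, 36.1% at the end itself, 50.4% at 300 bp inside, 48.5% at 500 bp, 9.08% at 1000 bp and 0.858% at 2000 bp. It was 0.286% at 3000 bp and 0.572% at 4000 bp, compared with 0.930% in the flank 3000 bp before the element, and 2.00% at 5500 bp. DiffBind regions followed the same course but ran further into the element, with 29.1% at 500 bp. They covered 14.7% at 1100 bp, where RS peaks covered 4.86%. A DiffBind region could rest on either antibody alone, so its wider reach may follow from that rule. PRO peaks covered 0.358% at 300 bp. By orientation, 67.2% of copies of at least 75% identity lay opposite to their host gene, and RS peaks covered 42.9% (interval 40.3 to 45.5) of these and 46.1% (42.4 to 49.8) of those on the same strand.

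**Figure D5:**
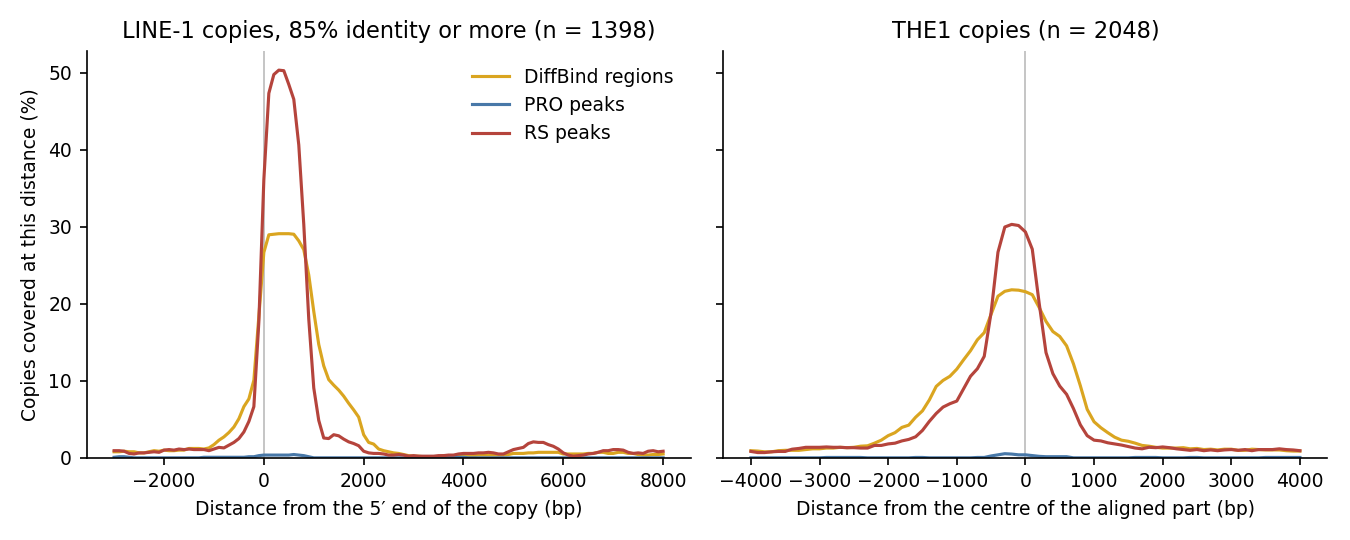
Percentage of transposon copies in qualifying intron that are covered by RS peaks (red), DiffBind regions (yellow) and PRO peaks (blue) at each distance, for 1398 LINE-1 copies from their 5′ end (left; positive distances run into the element) and 2048 THE1 copies from the centre of the aligned part (right). RS coverage peaks at 50.4% just inside the LINE-1 5′ end and at 30.3% in the THE1 internal part, while PRO coverage stays under 1%.

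The next commonest group was the internal part of THE1. The reference copy (chr12:104402401-104403400, in GLT8D2) came from an RS peak of 801 bp that overlapped a PRO peak and was flanked by direct repeats of 354 aligned bases at 90.7% identity, the LTRs, 1574 bases apart. Of 8805 matches on the chromosomes used, 2048 lay in qualifying intron. They were under 634 RS members (8.97%, interval 8.32 to 9.65) in 514 genes and 12 PRO members. They took 0.175% of the bases of the qualifying intron, again a measure unlike the share of members. This group too was found from RS members and for its rarity in uncovered intron. Of those 634 members 54.6% (interval 50.7 to 58.4) were over DiffBind regions, against 48.7% of all RS members. RS peaks covered 31.5% of the 2048 copies, and 33.2% of 6623 copies outside coding genes. Coverage was 30.3% at its highest and 1.07% at 3000 bp from the centre. Copies on the strand of the host gene and opposite to it were covered in 31.6% and 33.9% of cases. The share did not climb with identity, at 23.5% under 75%, 35.6% from 75 to 85% and 20.4% from 85 to 90%. Either element lay under 1647 RS members, 23.3% of all.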

How the data were processed

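Per the labels and the study's methods, reads were placed on hg19 by the authors with Bowtie2 2.1.0, and SICER 1.1 called domains over windows of 200 bp against a ChIP of total histone H4. Only stretches called with both antibodies were kept by the authors, separately for PRO and RS. Regions called different between groups came from DiffBind 1.8.3. The submitters' processing notes also name CASAVA 1.8.2, Trim Galore 0.3.0 and Picard 1.98. The deposited lists hold positions only, with no counts, signal, score or direction, so the depth behind each peak is unknown and no replicate test was possible. The study lists aligned and duplicate reads for each library. Both differed between the libraries, and the ratios of RS to PRO were not adjusted for them. Positions are given from 1, on GRCh37.

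Peaks were placed with GENCODE release 44 lifted to GRCh37. An overlap was at least 1 base. Windows of 200 bp inside peaks were compared with a grid every 20000 bp of qualifying intron outside all lists. A window was repeated when a 75-base sequence in it occurred elsewhere in the genome, and tandem when at least 80% of its positions matched at a shift of up to 100 bases. Groups of shared 16-base sequences were found from the RS peaks themselves, so their excess over the grid and over the PRO peaks is a description. Only sequences at least 4 times as frequent in RS windows as in the grid were used, so this was no census of transposons. Copies of a 1000-base reference were found with blastn 2.17.0 (E-value 1e-10, aligned span of at least 300 bases, pieces within 200 bases joined), and the transposons were recognised from sequence, without a repeat annotation. Python 3.11.15, NumPy 2.4.6, SciPy 1.17.1 and pysam 0.24.0 were used, and the routines were tested on simulated data. Named genes were the 15 with the most RS members, the 10 with the largest covered share among those with at least 5, the hosts of the longest and most shared peaks, and the leading hosts of each gene list. The members, gene lists and rules were chosen with earlier results of these data known. Some items are not reported here.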

Additional observations from a re-analysis of the deposited data

How the results depend on the processing

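Of 88 alternatives over 13 results, 67 stayed inside a range set for each result and 21 moved out of it. Some ranges were wide. For the RS to PRO ratio of covered length, 33.9, the range was 22.6 to 50.8. The ratio of 45.4 without peaks that hold repeated sequence therefore counted as inside. For the ratio of median length, 1.33, the range was 0.889 to 1.999. Ratios of 1.998 without such peaks and 1 with peaks of at least 1000 bp only also counted as inside. The values that moved follow. With peaks of at least 1000 bp only, the RS to PRO ratio was 50.4 for peak number and 52.9 for covered length, 58.9% of PRO members overlapped RS peaks, 55.5% of RS members overlapped DiffBind regions and 1.88% PRO peaks, RS members covered 0.379% of qualifying intron in 1627 host genes, and their windows had a median GC content of 49.5%, with 19.3% repeated and 2.30% tandem. Without peaks that hold repeated sequence, the ratio of numbers was 26.96, 50.1% of RS members overlapped DiffBind regions and 0.964% PRO peaks, 0.313% of the intron was covered, and 0.403% of windows were tandem. An overlap of at least 50% of the peak left 0.976% of RS members over PRO peaks. A 50-base sequence gave 48.4% repeated windows. The tandem share was 1.60% without PTPRN2, 1.01% at a 90% match and, in an alternative chosen after seeing the data, 0.340% without peaks within 5 Mb of a chromosome end. An aligned span of 600 bases, also chosen after seeing the data, put 13.2% of RS members over a LINE-1 5′ end. The cause of these shifts was not tested. Leaving out an antibody could not be done, since the lists hold no values per sample. No paired analysis was possible because no result comes from a test and antibodies were merged within each group.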

Other observations

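Beside LINE-1 and THE1, 6 smaller groups of shared sequence were found in the RS members and were given no name. The commonest of them took 2.13% of RS windows, 1.91% of PRO windows and 0.0931% of uncovered intron windows. The next took 1.41% of RS windows, 0 of 940 PRO windows and 0.0416% of uncovered windows. Another was commoner in PRO, with 2.77% of PRO and 0.763% of RS windows. All 8 groups together took 28.6% of RS, 13.0% of PRO and 0.955% of uncovered windows. The groups were chosen for their presence in RS windows and their rarity in uncovered windows. Both contrasts therefore follow in part from that choice.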
